A study of Mus musculus with 11 samples.

Results

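The hypoxia and glycolysis genes Gbe1, Pgp, Slc2a1, Hk2, Ldha, Pgk1, Vegfa, Adm, Bnip3 and Ndrg1 were followed through 27 RNA-seq libraries of mouse oviduct, ovarian surface epithelium (OSE), their organoids and tumors. They are 10 of the 18305 genes of the count table. The set was chosen on these same data because Gbe1 and Pgp fell from mutant organoid clones to tumors, so that contrast is given below as a description and supports nothing.

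Oviduct tissue (3 libraries) and OSE tissue (3) came from wild-type mice, and oviductal organoids (3) and OSE organoids (2, after the authors removed a contaminated line) were grown from wild-type C57BL/6 mice. The mice that gave organoids were females aged 8 to 12 weeks. Cas9GFP organoids (3) were oviductal organoids from reporter mice that carry Cas9 and EGFP, and the TBP clones (3) were made from Cas9-expressing oviductal organoids by guide RNAs against tumor suppressor genes, Trp53 and Brca1 among them, with outgrowth under Nutlin-3a and expansion from single picked organoids. TBP tumors (6) grew under the skin from injected TBP clones in female NSG mice, 8 to 12 weeks old, which lack lymphocytes but keep their own stroma and myeloid cells. Tumor-derived organoids (4) were regrown from such tumors in medium with Nutlin-3a: T1-mes and T3-mes from tumors with a mixed epithelial-mesenchymal form, T2-epi and T4-epi from glandular epithelial ones. The 4 tumor organoid lines trace to the same TBP clone, and T1-mes and T2-epi to adjacent tumors, so they are related lines rather than separate clones. The sources used here do not say which sequenced clone this was or which of the 6 sequenced tumors, if any, gave rise to which line. Each TBP line is a clone, and the study obtained Brca1 mutants only in the heterozygous state. The paper describes 2 independent clones per mutation set, so the 3 TBP clone libraries may include the same clone more than once. Tests with the clones treat each library as separate.

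When oxygen is short, the prolyl hydroxylases that mark hypoxia-inducible factor (HIF) alpha subunits for destruction slow down, and HIF bound to ARNT switches on genes through the core motif ACGTG or GCGTG. The targets raise glucose uptake and glycolysis, divert pyruvate to lactate, call in blood vessels and promote mitophagy. Slc2a1 encodes the glucose transporter GLUT1, Hk2 a hexokinase that traps glucose as glucose 6-phosphate, Pgk1 phosphoglycerate kinase and Ldha the lactate dehydrogenase subunit that favors lactate production. Gbe1, glycogen branching enzyme, adds branches to growing glycogen, and Pgp, phosphoglycolate phosphatase, clears phosphoglycolate and other side products of glycolysis. Vegfa is a growth factor for blood vessels, Adm encodes the vasodilator peptide adrenomedullin, Bnip3 is a mitochondrial receptor for mitophagy, and Ndrg1 is a stress-responsive protein linked to differentiation.

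In the GRCm38 build, with GENCODE vM21 gene limits, Gbe1 spans chr16:70313949-70569716 and Pgp spans chr17:24470392-24473110. Of the 10 genes, 9 had an entry in the RefSeq promoter table (GRCm38.p6), and Ndrg1 had none. In the 250 bases before the start site, 7 of those 9 genes held at least 1 match to ACGTG or GCGTG on either strand at a listed start. Counted by promoter this was 8 of 11, against 38.6% of all 32851 promoters in the table. Gbe1 and Pgp held none. The 5 stretches below are shown because they set these 2 genes beside 3 glycolytic or mitophagy genes of the set. They read 5′ to 3′ on the gene's strand, stop before any annotated exon, and have each match in capitals (CACGT and CACGC are the same cores read on the other strand, and CACGTG holds ACGTG on both strands at once, so it counts as 2 overlapping matches).
Gbe1: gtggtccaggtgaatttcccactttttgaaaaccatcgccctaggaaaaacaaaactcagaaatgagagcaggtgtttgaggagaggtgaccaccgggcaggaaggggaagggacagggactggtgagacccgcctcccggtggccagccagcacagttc
Pgp: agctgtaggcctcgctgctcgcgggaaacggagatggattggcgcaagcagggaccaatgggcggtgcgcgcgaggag
Ldha: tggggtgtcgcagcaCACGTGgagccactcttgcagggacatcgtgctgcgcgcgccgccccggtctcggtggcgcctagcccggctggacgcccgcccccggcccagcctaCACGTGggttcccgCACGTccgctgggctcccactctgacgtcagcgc
Bnip3: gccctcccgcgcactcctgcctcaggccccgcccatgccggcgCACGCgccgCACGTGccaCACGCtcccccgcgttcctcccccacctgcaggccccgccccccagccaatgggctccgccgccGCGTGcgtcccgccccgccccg
Pgk1: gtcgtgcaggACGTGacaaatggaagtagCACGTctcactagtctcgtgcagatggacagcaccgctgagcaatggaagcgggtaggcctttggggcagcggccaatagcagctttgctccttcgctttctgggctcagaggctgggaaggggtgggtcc
The stretches lie at chr16:70313789-70313948 (plus strand), chr17:24470314-24470391 (plus strand), chr7:46845644-46845803 (plus strand), chr7:138909520-138909666 (minus strand) and chrX:106186940-106187099 (plus strand). Ldha, here at the more upstream of its 2 listed starts, which lies inside the longer GENCODE gene model, and Bnip3 each had 5 matches in the 250 bases, counting overlapping ones, a number reached by 1.01% of all promoters. The downstream start of Ldha had only 1 match. The bases just after the upstream Ldha start were found near the beginning of 0 GENCODE transcripts of the gene. Those after its downstream start were found in 1. Pgk1 had 2 matches, both more than 125 bases before its start. Slc2a1, Hk2 and Adm had 2 matches each, and Vegfa had none at its upstream start and 2 at its downstream start. The bases after that downstream Vegfa start were likewise found in 0 transcripts. Of the 250 bases before it, 218 lay in annotated exons. Vegfa counts among the 7 genes with a match only through that start. A match is a string of letters and was not tested for binding.

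Library totals ranged from 82239 counts (TBP clone 1) to 4531767 (TBP clone 3), and the next lowest total was 600579. TBP clone 1 thus gave few reads per gene, for example 5 of Slc2a1, and without it the same number of the 10 genes was called in each comparison that uses the clones. None of the 33 pairs of libraries of a group agreed within sampling noise. The libraries count reads, not molecules, and p-values measure the spread between these libraries. The 3′ read tags of this method need not cover the edited sites, so the counts do not check the genotypes. The labelled cell types were checked with summed markers: 7 epithelial markers summed to between 2268 and 6766 CPM (counts scaled to a common library total) in all organoids except T3-mes (269.7 CPM). OSE tissue held 373 to 444 CPM of them beside 9354 to 11296 CPM of 5 steroidogenic markers, so these libraries also hold RNA of ovarian cells other than the surface layer. Oviduct tissue held 5434 to 6754 CPM of 5 smooth muscle markers. In bulk RNA, fewer cells of a type and less RNA per cell cannot be told apart.

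**Figure D1:**
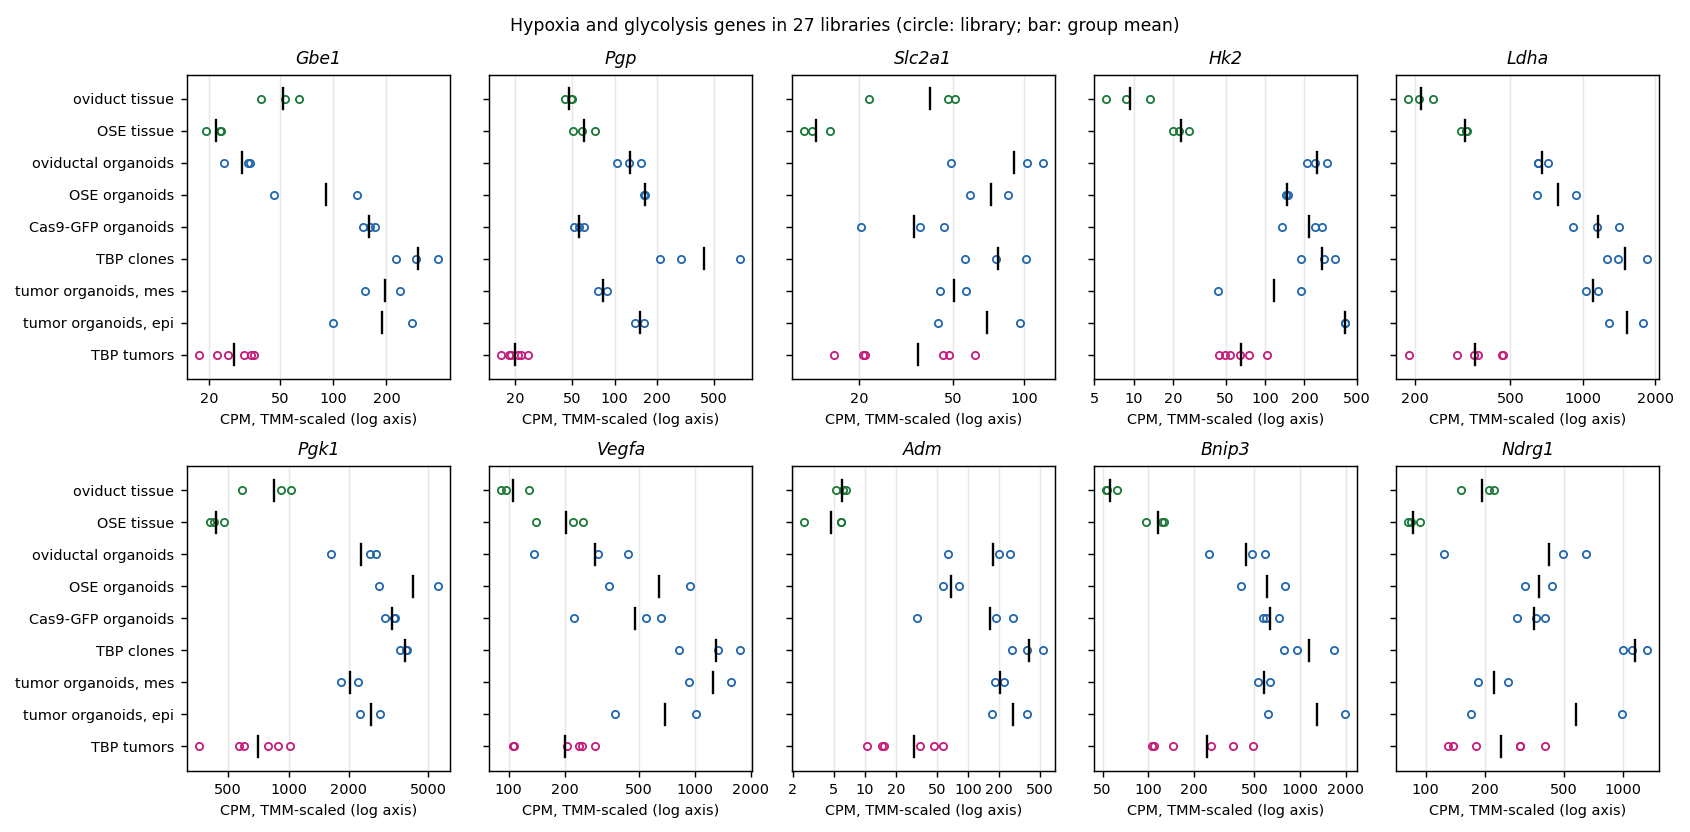
Level of each of the 10 genes in every library, in CPM scaled by TMM on a log axis, by group. Circles are libraries, black bars are group means, and colors mark tissues (green), organoids (blue) and tumors (pink). Gbe1 and Pgp were above 200 CPM in all 3 TBP clones and below 40 CPM in all 6 TBP tumors.

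Across the 9 groups, with tumor organoids split into mes and epi, 5 of the 10 genes had their highest mean in TBP clones (Gbe1, Pgp, Vegfa, Adm and Ndrg1). The lowest mean was in a normal tissue for every gene but Pgp, whose lowest mean was in TBP tumors. All levels are CPM after TMM scaling, a correction of library totals for composition. The tags come from the 3′ end of transcripts, so levels are compared within a gene. The share of all genes whose groups did not overlap was not counted, so overlap is given below only as a description.

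Gbe1, the branching enzyme, was measured at 391, 292 and 226 CPM in TBP clones 1 to 3. In the 6 TBP tumors it ran from 17.5 CPM through a median of 28.3 to 35.6 CPM, so the highest tumor lay more than 6 times below the lowest clone. Gbe1 was 10.6 times lower in tumors by the fitted model (log2 fold change -3.41, SE 0.28), the difference on which the genes were chosen. Without clone 1 or any other single library, the log2 fold change stayed between -3.57 and -3.24.

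Tumor organoids carried Gbe1 at 151 (T1-mes), 99.2 (T2-epi), 239.6 (T3-mes) and 279.5 CPM (T4-epi), all above every tumor. Cas9GFP organoids had 173, 161 and 148 CPM, below all clones. Oviductal organoids without Cas9 had only 24.3, 33 and 34.1 CPM, inside the range of the tumors and below the 3 oviduct tissues at 53.7, 64.5 and 39.1 CPM. The 2 kinds of unedited oviductal organoid therefore did not overlap in Gbe1, a difference that was not tested. In the OSE lineage Gbe1 was at 22.8, 23.3 and 19.1 CPM in tissue and at 137 and 46.6 CPM in organoids.

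Pgp, the phosphatase, had 771, 210.0 and 296 CPM in the clones and 15.9 to 24.5 CPM, with a median of 19.7 CPM, in the tumors. Clone 1, with 69 Pgp reads, stood far above the other clones. The fitted level in tumors was 20.1 times lower (log2 fold change -4.33, SE 0.35), and without clone 1 the log2 fold change was -3.69. Tumor organoids had 88.4 (T1-mes), 139.6 (T2-epi), 76.6 (T3-mes) and 163 CPM (T4-epi), again above all tumors.

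In unedited material Pgp took another course than Gbe1. It was at 154, 105 and 126 CPM in oviductal organoids against 56.4, 51.8 and 61.0 CPM in Cas9GFP organoids, while Gbe1 was higher in the latter. Oviduct tissue held 49.3, 44.7 and 50.1 CPM of Pgp, above every tumor. OSE tissue held 72.8, 51.2 and 58.9 CPM and OSE organoids 163 and 164 CPM.

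Between TBP tumors and TBP clones all 10 genes were lower in tumors, with a median log2 fold change of -2.34, where the median over all 10473 genes tested was 0.16. For the record, 9 of the 10 would be below and 0 above by the edgeR quasi-likelihood rule used further on (adjusted p under 0.05), where 11.7% of all genes were lower and 20.1% higher. This contrast chose the genes, so that count is no test of them and nothing is read from it. The other 8 genes had log2 fold changes from -3.73 (Adm) to -1.19 (Slc2a1), and only Slc2a1 had tumors that overlapped the clones.

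TBP tumors were next set against tumor organoids, which are the same cell lineage returned to culture. The 2 comparisons share the 6 tumor libraries, so Gbe1 (log2 fold change -2.78) and Pgp (-2.55) are again given without a test. Of the other 8 genes, 6 were lower in tumors and 0 higher, against 12.3% of the 10605 genes tested that were lower and 15.1% that were higher. Their median log2 fold change was -1.91, against 0.02 over all genes.

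Among the enzymes, Pgk1 was at 2229 (T1-mes), 2283 (T2-epi), 1835 (T3-mes) and 2859.6 CPM (T4-epi). The tumors held 357 to 1019 CPM with a median of 695 CPM. All tumors lay below all tumor organoids, and Pgk1 was 3.26 times lower (SE of log2 fold change 0.28, adjusted p = 0.00161 by edgeR's quasi-likelihood test with Benjamini-Hochberg adjustment). Ldha was at 1161, 1282, 1034 and 1779 CPM in the same order of organoids and at 189 to 465 CPM, with a median of 359.5 CPM, in tumors. It was 3.68 times lower (SE 0.27, adjusted p = 0.000745), again without overlap.

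Hk2 varied most among tumor organoids. T2-epi and T4-epi had 407 and 408 CPM, T1-mes 189.5 CPM and T3-mes 44.1 CPM, while the tumors held 44.6 to 103 CPM with a median of 59.2 CPM. T3-mes lay below every tumor and the other 3 lines above every tumor. Hk2 was 4.00 times lower in tumors (SE 0.51, adjusted p = 0.0143). Slc2a1 was at 44.2, 43.2, 56.8 and 96.1 CPM in T1-mes to T4-epi, and the tumors overlapped these values, with 15.7 to 62.0 CPM and a median of 33.4 CPM. Its log2 fold change of -0.74 (SE 0.42) was not called (adjusted p = 0.219).

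Of the secreted factors, Vegfa was at 928, 372, 1567 and 1010.3 CPM in T1-mes, T2-epi, T3-mes and T4-epi, against 106 to 293 CPM with a median of 223 CPM in tumors. It was 4.78 times lower in tumors (SE 0.41, adjusted p = 0.00262). Adm was at 222, 171, 183 and 377 CPM in the organoids and at 10.5 to 56.8 CPM, median 24.8 CPM, in tumors, 7.86 times lower (SE 0.48, adjusted p = 0.00141). Neither gene overlapped between the groups.

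T4-epi stood apart for the 2 stress genes. Bnip3 was at 632, 616, 525.8 and 1975 CPM in T1-mes, T2-epi, T3-mes and T4-epi, and at 105 to 489.9 CPM, median 202 CPM, in tumors. It was 3.82 times lower (SE 0.54, adjusted p = 0.0221), but without T4-epi the log2 fold change was -1.25 and the call was lost (adjusted p = 0.0946). Ndrg1 was at 261, 169, 185 and 989 CPM in the organoids, and the tumors, at 129 to 403 CPM with a median of 240.5 CPM, spanned the first 3 of these. Its log2 fold change of -0.73 (SE 0.54) was not called (adjusted p = 0.351) and became 0.27 without T4-epi.

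Other cell types moved with this comparison. The 7 fibroblast markers summed to 9662 to 57045 CPM in tumors, 3126 to 7546 CPM in mes organoids and 31.3 to 102 CPM in epi organoids, with none at 0 throughout a group. The 7 myeloid markers summed to 541 to 2402 CPM in tumors and at most 34.5 CPM in tumor organoids, where Lyz2, C1qa, C1qb and Tyrobp were at 0. Skeletal muscle markers reached 9836 CPM in tumor 5. Epithelial markers summed to 175 to 388 CPM in 4 tumors, to 1994 CPM in tumor 1 and to 2592 CPM in tumor 3. Tumors 1 and 3 held 357 and 789.7 CPM of Pgk1, and the other 4 tumors 565 to 1019 CPM. Other genes ran differently. Tumor 3 was the highest tumor for Gbe1, Slc2a1, Hk2, Vegfa, Bnip3 and Ndrg1, and tumor 5 for Pgp, Ldha and Pgk1. Tumor 1 was the highest for Adm but the lowest for Gbe1, Ldha, Pgk1, Vegfa, Bnip3 and Ndrg1. The part of these cell types in the differences was not tested. RNA was extracted with Trizol from tissues and with a column kit from organoids, and the tumor organoids grew with Nutlin-3a, so extraction, Nutlin-3a and growth in culture cannot be told apart.

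**Figure D2:**
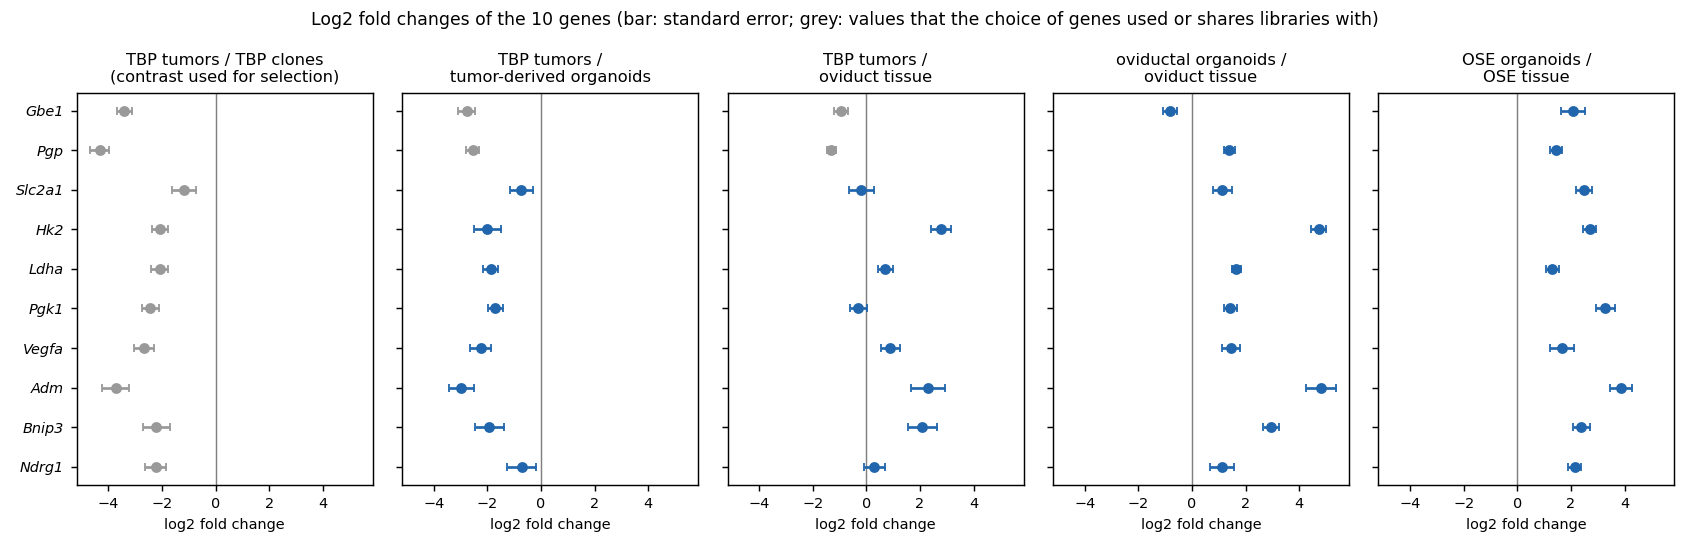
Log2 fold changes (points) with standard errors (bars) of the 10 genes in 5 comparisons, named above each panel as numerator over denominator. Grey points are the contrast that chose the genes, and Gbe1 and Pgp in comparisons that reuse the tumors. All 10 points lie below 0 in tumors over tumor organoids and above 0 in OSE organoids over OSE tissue.

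The same tumors were also compared with normal oviduct tissue. Hk2 and Adm passed the filter on low counts there only through the tumors, in which they are high, so they are given apart. Of the other 6 genes tested, 1 was higher in tumors and 0 lower, against 23.7% and 22.4% of the 10827 genes tested, a share of the genes no higher than the background. The 1 was Bnip3, which rose from 62.4, 52.6 and 53.8 CPM in oviduct tissue, 4.25 times (SE of log2 fold change 0.55, adjusted p = 0.0108), with all 6 tumors above all tissues. Hk2 was at 8.71, 13.2 and 6.11 CPM in oviduct tissue, on 5 to 12 reads, and Adm at 6.53, 5.26 and 6.11 CPM, on 4 to 9 reads. All 6 tumors lay above all tissues for both. In a fit with no filter Hk2 had a log2 fold change of 2.85 (SE 0.39, adjusted p = 0.000263) and Adm of 2.34 (SE 0.62, adjusted p = 0.0138). With the filter, the Adm call was lost when any tissue library was left out, with adjusted p up to 0.0558.

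Ldha (209, 239 and 188 CPM in oviduct tissue) and Vegfa (91.4, 129 and 96.5 CPM) overlapped the tumors. Their log2 fold changes of 0.71 (SE 0.28, adjusted p = 0.0604) and 0.89 (SE 0.36, adjusted p = 0.068) were not called, but both were without tumor 1, at 0.83 and 1.01, and Vegfa also without tumor 6, at 1.01. Tumor 1 had the lowest Ldha and Vegfa of the 6. Pgk1, at 913, 1028 and 589 CPM in oviduct tissue, had a log2 fold change of -0.30 (SE 0.32, adjusted p = 0.46). Slc2a1 (50.8, 47.4 and 22.0 CPM) and Ndrg1 (209, 221 and 150.3 CPM) also overlapped, at -0.20 and 0.29. Gbe1 and Pgp, given without a test, were lower than in all oviduct tissues, by log2 fold changes of -0.95 and -1.31. Oviduct tissue held 3816 to 7029 CPM of fibroblast and 191 to 246 CPM of myeloid markers, whose part in these differences was not tested.

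Normal organoids were compared with bulk tissue in 2 lineages whose libraries were not in the contrast that chose the genes. Tissue and organoids also differed in cell types and in extraction (Trizol or column kit). These and growth in culture cannot be told apart here. In the OSE lineage all 10 genes were higher in organoids than in tissue, against 14.5% of the 10232 genes tested that were higher and 18.6% that were lower. None of the 10 overlapped, but the share of all genes without overlap was not counted. Their median log2 fold change was 2.27, against -0.07 over all genes.

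Adm went from 2.54, 5.82 and 5.84 CPM in OSE tissue (3 to 11 reads) to 57.2 and 81.1 CPM in OSE organoids, 14.6 times higher (SE of log2 fold change 0.40, adjusted p = 0.00111). Pgk1 went from 425, 474 and 408 to 5583 and 2826 CPM, 9.72 times higher (SE 0.34, adjusted p = 0.00113). Hk2 went from 22.0, 19.8 and 26.5 to 143 and 151 CPM, 6.50 times higher (SE 0.24, adjusted p = 0.000652). The vasodilator gene thus had the largest fold of the 10, from a tissue level of a few reads.

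Slc2a1 went from 12.7, 15.1 and 11.7 to 85.5 and 58.8 CPM (5.57 times higher, SE 0.30, adjusted p = 0.00178). Bnip3 went from 96.5, 123 and 126 to 794 and 408 CPM (5.25 times, SE 0.32, adjusted p = 0.00255). Ndrg1 went from 93.9, 81.5 and 83.9 to 437 and 318 CPM (4.41 times, SE 0.24, adjusted p = 0.00125). For the transporter and Ndrg1 alike the lower organoid lay more than 3 times above the highest tissue. Pgp, at the levels given above, was 2.71 times higher (SE 0.24, adjusted p = 0.00486).

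The other 3 were less firm. Gbe1 was 4.23 times higher (SE 0.45, adjusted p = 0.0133), but its log2 fold change ran from 1.19 without OSE organoid 1 to 2.68 without OSE organoid 2. Vegfa went from 139.6, 221 and 249 to 940.2 and 346 CPM, 3.18 times higher (SE 0.44, adjusted p = 0.0273), with log2 fold changes from 0.83 to 2.21 over the same omissions. Ldha went from 332, 327 and 313 to 940.2 and 643 CPM, 2.47 times higher (SE 0.25, adjusted p = 0.00839). OSE organoid 1 was the higher organoid for all 3. The calls of Gbe1 and Vegfa were lost when any of the 3 tissue libraries was left out, and that of Ldha without tissue 2 or 3, with adjusted p up to 0.0761, 0.116 and 0.0574. The steroidogenic markers fell from 9354 to 11296 CPM in tissue to 8.39 and 21.8 CPM in organoids, and their part in these differences was not tested.

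In the oviduct lineage Hk2 and Adm again passed the filter only through the group where they are high, here the organoids. Of the other 8 genes, 6 were higher in organoids than in tissue and 1 was lower, against 18.7% and 24.2% of the 9477 genes tested. Their median log2 fold change was 1.42, against -0.02 over all genes. Adm was at 63.4, 255 and 201 CPM in organoids and Hk2 at 208, 298 and 240.2 CPM, all above the tissue values, which rested on few reads. In a fit with no filter both were called, at log2 fold changes of 4.85 (SE 0.37) and 4.78 (SE 0.29).

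Bnip3, at 251, 591 and 479 CPM in organoids, was 7.71 times higher (SE 0.30, adjusted p = 1.31e-05). Ldha, at 654, 716 and 652 CPM, was 3.14 times higher (SE 0.17, adjusted p = 1.11e-05). Pgk1, at 1638, 2727 and 2541 CPM, was 2.71 times higher (SE 0.25, adjusted p = 0.000552). In none of these 3 did an organoid overlap a tissue. Vegfa, at 137, 436 and 302 CPM, was 2.75 times higher (SE 0.35, adjusted p = 0.00544), and Pgp was 2.64 times higher (SE 0.20, adjusted p = 0.000162).

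Slc2a1 overlapped, with 49.1, 102 and 119 CPM in organoids, and was 2.19 times higher (SE 0.36, adjusted p = 0.0246). Its call was lost without organoid 2, organoid 3 or tissue 3, with log2 fold changes of 1.04, 0.88 and 0.87 and adjusted p up to 0.104. Ndrg1, at 123, 648 and 495 CPM in organoids, was not called (log2 fold change 1.12, SE 0.45, adjusted p = 0.0615), but was called without organoid 1 at 1.58. Oviductal organoid 1 was the lowest of its group for 8 of the 10 genes, all but Pgp and Ldha, and the highest for Pgp. Gbe1 was 1.75 times lower in organoids (SE 0.26, adjusted p = 0.0272), a call that was lost without organoid 1, tissue 1 or tissue 2, with log2 fold changes of -0.62, -0.80 and -0.62 and adjusted p up to 0.132. Oviduct tissue smooth muscle and fibroblast markers were near 0 in organoids (at most 6.68 and 5.08 CPM), and their part was not tested.

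**Figure D3:**
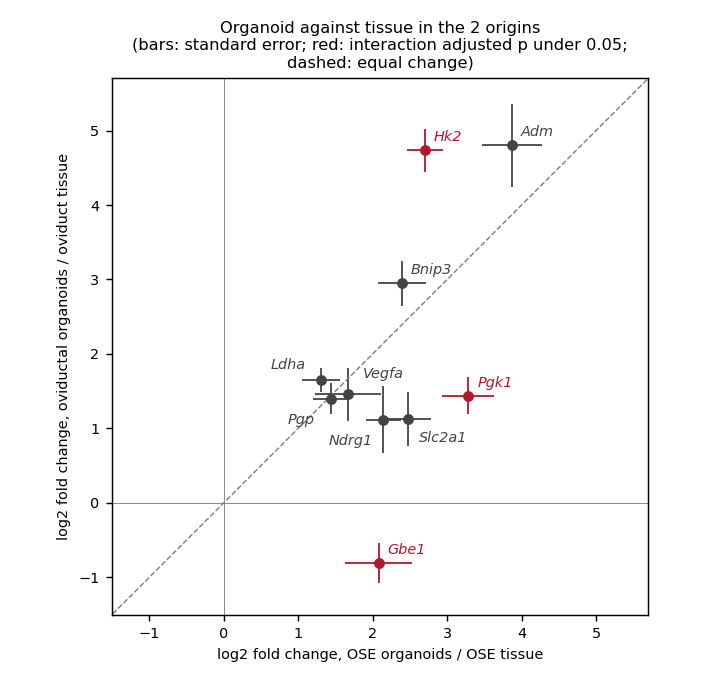
Log2 fold change of organoid over tissue in the OSE lineage (horizontal) and the oviduct lineage (vertical) for the 10 genes, with standard errors as bars and the line of equal change dashed. Red points, Gbe1, Hk2 and Pgk1, are those whose change differed between lineages by the interaction test.

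The change from tissue to organoid differed between the 2 lineages for 3 of the 10 genes (interaction term, oviduct change minus OSE change). Hk2 rose more in the oviduct lineage, by a log2 difference of 2.14 (SE 0.39, adjusted p = 0.00475). Gbe1 went opposite ways, with a log2 difference of -2.77 (SE 0.53, adjusted p = 0.00573). Pgk1 rose more in the OSE lineage, with a log2 difference of -1.74 (SE 0.44, adjusted p = 0.0234). Thus 1 of the 10 differed in the positive and 2 in the negative direction, against 5.0% and 6.68% of the 11458 genes tested. The Pgk1 call was lost without oviduct tissue 1 or 2 or OSE tissue 1 or 3 (log2 differences of -1.70, -1.56, -1.75 and -1.69, adjusted p up to 0.0641), and the Gbe1 difference was -1.87 without OSE organoid 1. The other 7 genes were not called.

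Editing and cloning were addressed by TBP clones against Cas9GFP organoids. All 10 genes were higher in the clones, but Gbe1 and Pgp were chosen on these clone libraries. The share of all genes with a positive change was not counted, so this direction only describes. The other 8 had a median log2 fold change of 1.08, against -0.01 over all genes. Few of all 7708 genes tested passed the test here, 0.389% higher and 0.428% lower. Ndrg1 was the only one of the 8 genes tested that did. It was at 364, 404 and 289.8 CPM in Cas9GFP organoids and at 1117, 1003 and 1329 CPM in the clones, without overlap, 3.34 times higher (SE of log2 fold change 0.33, adjusted p = 0.0322). The call was lost when any Cas9GFP library was left out, with log2 fold changes of 1.58 to 1.81 and adjusted p up to 0.336. Without the shallow clone 1 it was 1.68 (adjusted p = 0.0432).

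Vegfa, at 547, 659.6 and 226 CPM in Cas9GFP organoids and 1754, 821 and 1331 CPM in clones, did not overlap either but was not called (log2 fold change 1.49, SE 0.46, adjusted p = 0.23). Slc2a1 (45.9, 36.3 and 20.3 against 55.9, 75.5 and 101 CPM) had a log2 fold change of 1.28 (SE 0.39, adjusted p = 0.227). Bnip3 (599, 730.4 and 573 against 961, 1667 and 783 CPM) had 0.87 (SE 0.37, adjusted p = 0.44). All 3 genes were thus higher in every clone than in every Cas9GFP organoid without passing the test.

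Adm (271, 188 and 32.1 against 268, 378 and 530.2 CPM) and Hk2 (239.8, 271 and 136 against 189.9, 280.2 and 341 CPM) overlapped, with log2 fold changes of 1.31 and 0.38. Ldha (1145, 1416 and 911 against 1263, 1852 and 1396 CPM) also overlapped, at 0.41. Pgk1 (3032, 3417 and 3374 against 3586, 3926 and 3876 CPM) had the smallest log2 fold change, 0.25 (SE 0.34, adjusted p = 0.857). Gbe1 and Pgp, given without a test, had log2 fold changes of 0.92 and 2.89, and that of Pgp was 2.12 without clone 1.

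Passage through a tumor and back to culture, tumor organoids against TBP clones, gave no called gene, 0% of the 9496 genes tested higher and 0% lower. At an unadjusted p under 0.05, 449 genes were higher and 305 lower, and DESeq2 called 67 higher and 27 lower, none of them among the 8 genes tested. All 10 genes had negative log2 fold changes, from -1.89 (Pgp) to -0.09 (Hk2). Gbe1 and Pgp were chosen on these clone libraries, and the share of all genes with a negative change was not counted, so this direction only describes. Pgk1 (log2 fold change -0.76, SE 0.33, adjusted p = 0.62) lay below the clones in all 4 tumor organoids. Ndrg1 (-1.56, SE 0.61, adjusted p = 0.601) did so too, with T4-epi at 989 CPM close to clone 2 at 1003 CPM.

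Among tumor organoids, the 2 mes lines were compared with the 2 epi lines. None of the 10 genes was called, against 1.0% of the 9775 genes tested that were higher in mes and 0.123% that were lower. Unadjusted p was under 0.05 for Hk2 (log2 fold change -1.81, SE 0.67, adjusted p = 0.309) and Pgp (-0.87, SE 0.32, adjusted p = 0.314), and DESeq2 called none of the 10. Without T1-mes the Hk2 log2 fold change was -3.22 and was called (adjusted p = 0.00297), a value that rests on T3-mes alone at 44.1 CPM. Hk2, Ldha, Pgk1 and Pgp were lower in both mes lines than in both epi lines, and the other 6 genes overlapped. With 2 lines against 2 and no such count over all genes, nothing is read from this.

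The genes around these 10 were followed in 4 lists. Unlike Hk2 and Adm above, list genes that passed the filter on low counts only through the group where they are high were not set apart. The list counts include them and only describe. Of 20 other glycolysis genes, 11 of 19 tested were lower in tumors than in tumor organoids and 1 was higher, against 12.3% and 15.1% of all genes, with a median log2 fold change of -1.33. The largest called changes were in Aldoc (aldolase C, -3.74), Gapdh (-2.44) and Pkm (pyruvate kinase, -2.02). Gapdh had at most 25 reads in a tumor library, and uniquely mapped reads undercount genes with near-identical copies, such as Gapdh, Ldha and Pgk1. Of 20 other HIF targets, 7 of 20 were lower and 0 higher, with a median of -0.79, led by Ero1l (an oxidase of disulfide formation, -3.59), Egln3 (a HIF prolyl hydroxylase, -2.64) and Ak4 (a mitochondrial adenylate kinase, -2.05).

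In normal organoids against bulk tissue the same lists were mostly higher. In OSE organoids against OSE tissue 13 of 16 glycolysis genes and 15 of 19 HIF targets were higher, against 14.5% of all genes, with median log2 fold changes of 1.57 and 2.06. Egln3 (7.04), Stc2 (stanniocalcin 2, 5.75) and Ero1l (4.65) led the targets, and Gpi1 (glucose phosphate isomerase, 3.37) the glycolysis genes. Stc2 had at most 6 reads in an OSE tissue library, so it passed the filter through the organoids. Without OSE tissue 3, 8 glycolysis genes were called higher. In oviductal organoids against oviduct tissue 12 of 18 glycolysis genes and 13 of 18 HIF targets were higher, against 18.7% of all genes, with medians of 1.39 and 1.36, led by Gpi1 (2.92), Egln3 (3.83), Ak4 (3.60) and Ero1l (3.53). Ak4 had at most 6 reads in an oviduct tissue library, and it too passed the filter through the organoids.

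Some glycolysis genes were lower in organoids than in tissue. Ldhb, the lactate dehydrogenase subunit opposite to Ldha, fell by 3.10 on the log2 scale in the OSE lineage and by 2.56 in the oviduct lineage. The OSE fall was not called without OSE tissue 1 or 3. Slc2a3, the glucose transporter GLUT3, had at most 3 reads in an oviductal organoid library and was at least 52.0-fold lower there than in oviduct tissue, against a floor of 3 reads per library.

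Against oviduct tissue, tumors had 9 of 19 HIF targets higher and 0 lower (median 0.96), with Egln3 (2.85) and Bhlhe40 (2.70) among the largest changes. That count was 5 without oviduct tissue 1 or 3. The glycolysis list was split, with 6 of 19 higher and 5 lower (median 0.34), close to the 23.7% and 22.4% of all genes. Slc2a3 (-4.29), Aldoc (-3.89) and Ldhb (-3.04) were the largest changes. The count of higher glycolysis genes was 2 to 3 without any 1 of the oviduct tissues.

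Against TBP clones, 12 of 18 glycolysis genes and 11 of 19 HIF targets were lower in tumors and 1 and 0 were higher, against 11.7% and 20.1% of all genes, with medians of -1.99 and -1.71. Ero1l (-4.79) and Aldoc (-4.54) led, and Pdk1, the kinase that shuts pyruvate out of mitochondria, was at -2.83. Clones against Cas9GFP organoids gave 2 of 18 HIF targets higher, P4ha2 (2.34) among them, and none of 16 glycolysis genes, against 0.389% of all genes. Without any 1 of the Cas9GFP libraries no target was called, and without clone 1 or clone 3 only 1 target was.

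The glycogen list, the pathway of Gbe1, showed no common direction in the 10 genes tested. Tumors against tumor organoids gave 1 higher, the muscle phosphorylase Pygm (6.33), and 3 lower, among them Pgm2 (-1.47) and the glycogen synthase Gys1 (-1.35). Of all genes 15.1% were higher and 12.3% lower. Skeletal muscle markers, between 50.8 and 9836 CPM in tumors and at most 5.82 CPM in tumor organoids, moved with Pygm. Gys1 was higher in organoids than in tissue of both lineages, by log2 fold changes of 3.01 (oviduct) and 2.71 (OSE), whereas Pygm was lower in oviductal organoids (-3.78) and at least 15.3-fold lower in OSE organoids, against the same floor. Gys1 had at most 7 reads in an oviduct tissue library and at most 9 in an OSE tissue library. Without epi organoid T4, 1 glycogen gene was lower in tumors than in tumor organoids, and without any 1 of the OSE tissues 1 was higher in OSE organoids, in place of 3.

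**Figure D4:**
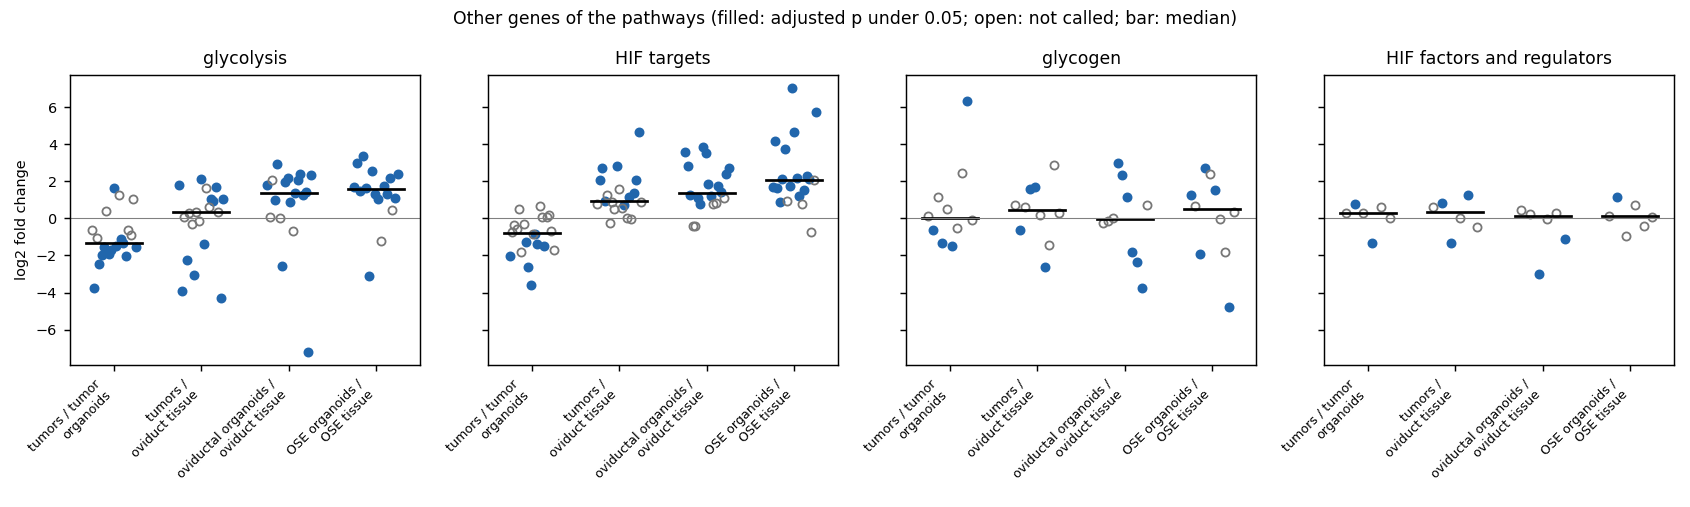
Log2 fold changes of the other genes of 4 pathway lists in 4 comparisons, named on the horizontal axis as numerator over denominator. Each circle is a gene, filled where its adjusted p was under 0.05, and bars are medians. Glycolysis genes and HIF targets lie mostly below 0 for tumors over tumor organoids and mostly above 0 for both kinds of organoid over tissue.

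The HIF factors themselves and their regulators went both ways. In tumors against TBP clones 3 of 7 were called, Hif3a (log2 fold change -4.04) and Hif1a (-1.16) lower and Epas1 (1.33) higher. Of all genes 11.7% were lower and 20.1% higher there. Hif3a had at most 6 reads in a tumor library, so it passed the filter through the clones. Epas1 was not called without clone 3, and without clone 2 only 1 gene was lower. In tumors against oviduct tissue 3 of 6 were called, Epas1 lower (-1.31) and Hif1an (1.27) and Egln2 (0.85) higher, and without any 1 of the oviduct tissues at most 1 was higher. Without tumor 4, 2 of these genes were lower there. In the same comparison 23.7% of all genes were higher and 22.4% lower. Hif1a, the oxygen-labile alpha subunit, was lower in tumors than in tumor organoids (log2 fold change -1.32, SE 0.25, adjusted p = 0.00364), and Egln2, another prolyl hydroxylase, was higher (0.80), the only 2 called of 6 tested. For all genes the shares were 12.3% lower and 15.1% higher. Egln2 was not called without T1-mes or T2-epi. Epas1, which encodes HIF-2 alpha, was lower in oviductal organoids than in oviduct tissue (-3.02, SE 0.23, adjusted p = 1e-06), with Vhl at -1.12. They were the 2 called of 6 tested, against 24.2% of all genes lower and 18.7% higher. In OSE organoids only Egln2 was called of 6 (1.17), and not without any 1 of the OSE tissues. There 14.5% of all genes were higher and 18.6% lower. So few genes were tested that no trait of this list is read from the counts. HIF is regulated mostly as a protein, which these libraries do not measure.

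Over the 27 libraries, the genes whose log2 CPM was most like that of Ldha were Pkm (Pearson r 0.95), Ero1l (0.94) and Bnip3 (0.94), among 6292 genes with a mean of at least 20 CPM. Bnip3 was nearest to Ero1l (0.95), Ldha (0.94) and Bnip3l (0.93), Vegfa to Ero1l (0.87), Ldha (0.86) and Bnip3 (0.85), and Adm to Gprc5a (0.92), Ero1l (0.91) and Pkm (0.91). Hk2 was nearest to Pmaip1, Bnip3l and Tpi1 (all 0.91), Pgk1 to Fam162a (0.93), Vldlr (0.91) and Rin1 (0.91), Slc2a1 to Ndrg1 (0.80), Itpr3 (0.79) and Sypl (0.79), and Ndrg1 to Hilpda (0.87), P4ha2 (0.83) and Isg20 (0.83). The 2 genes behind the choice had other neighbors. Gbe1 was nearest to Kbtbd11 (0.87), Hk1 (0.87) and Ttf1 (0.86), and Pgp to Chmp2a (0.90), Acot13 (0.88) and Fau (0.88). The points share libraries and groups, so these values only describe how the levels run together.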

How the data were processed

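Bulk RNA was sequenced from 27 libraries by CEL-Seq2, a 3′ tag method, after extraction with Trizol (tissues) or a column kit (organoids). The authors aligned reads to GRCm38 with BWA, kept unique, high-quality reads in the sense direction, and deposited raw counts per gene without correction for molecular identifiers, so all errors of counting assume independent reads. Per the submitters' processing notes DESeq2 1.18.0 was also used. Groups came from the labels and library columns, and 0 columns of values were left unused. From the deposited counts, 1 spike-in row with 1 count was dropped, leaving 18305 genes. Each comparison was fitted over all genes on its own libraries with edgeR 4.0.16 in R 4.3.3 (filterByExpr with a minimum count of 10, TMM, quasi-likelihood F test, Benjamini-Hochberg adjustment), called at an adjusted p under 0.05, and the interaction used the 4 groups of normal tissue and organoids. The fits were tested on simulated data. SE is the log2 fold change over the root of F. Alternatives were DESeq2 1.42.0, RLE factors, no filter, 1 fit of all 27 libraries, a replicate block and leaving out each library.

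Named were all 10 genes, the 3 largest called changes per list and comparison (1 of these genes is not reported here), and the 3 genes most like each by Pearson correlation (prior count 2, mean of at least 20 CPM). The 10 genes and all lists were chosen with earlier results of these data known, so counts over them describe and are no independent evidence. Of the 8 myeloid markers 7 were in the table, and of the 5 erythroid markers 2. Promoters came from RefSeq on GRCm38.p6. Depth limits precision most in TBP clone 1, with 82239 counts.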

Additional observations from a re-analysis of the deposited data

Results flagged for a closer look

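In the 4 tumor organoids T4-epi stood apart from the rest for Bnip3, at 1975 CPM against 632 CPM in the next library, and for Ndrg1, at 989 CPM against 261 CPM. These are 2 of 20 groups tested with Dixon's ratio, each of the 10 genes in the 4 tumor organoids and in the 6 tumors. By chance this test marks about 1 in 20 groups. Both flags fall on the same library, in genes that correlate over the 27 libraries (Pearson r 0.77), so they are not independent. The change from tissue to organoid differed between the oviduct and OSE lineages for Gbe1 (log2 difference -2.77), Hk2 (2.14) and Pgk1 (-1.74), each by an interaction term. Erythroid markers summed to 139 CPM in tumor 6 and to at most 6.12 CPM in the other 5 tumors.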

How the results depend on the processing

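For the 10 genes, RLE factors changed no count of calls by over 1.5 times, and the other alternatives moved few. Tumors against tumor organoids gave 2 genes lower with the replicate block, against 6 without it, while the share of all genes called lower went from 12.3% to 1.61%. The block gave 1 gene lower in tumor organoids than in TBP clones, against 0, and 6 genes raised in OSE organoids over their tissue, against 10, where the share of all genes called higher went from 14.5% to 4.56%. Library numbers were not used as pairs in the main fits. In no comparison with 3 or more pairs did the correlations of same-numbered libraries all exceed 0.1, and they ran from -0.55 to 0.13. The 2 pairs of mes and epi lines that share a sample were both at 0.106. In clones against Cas9GFP organoids, tumor organoids against clones and oviductal organoids against tissue, each library with a partner of its own number correlated best with it. The tumor organoid lines trace to the same TBP clone, so their numbers cannot mark descent from separate clones. Whether the numbers mark pairs in any other way was not settled. The count of genes higher in clones than in Cas9GFP organoids was 3 with no filter, 0 in the fit of all 27 libraries and 0 to 1 without 1 library. Gbe1, the 1 gene lower in oviductal organoids than in tissue, was not called by DESeq2 or in the fit of all libraries (0 each), and the count was 0 to 1 without 1 library. Genes lower in mes than epi organoids numbered 1 in the fit of all libraries and 0 to 1 without 1 library. Leaving out a library gave 2 to 5 genes higher in tumors than in oviduct tissue (Hk2 and Adm included), and 1 to 2 negative interactions. The interaction for Pgp, 0.07, became -0.00380 with DESeq2 and -0.00970 with RLE factors. Signs that changed without 1 library belonged to uncalled values: Ndrg1 in tumors against tumor organoids (-0.99 to 0.27), Slc2a1 in tumors against oviduct tissue (-0.48 to 0.00103), Hk2 (-0.41 to 0.24) and Bnip3 (-1.003 to 0.053) in tumor organoids against clones, Gbe1 (-0.56 to 0.97), Slc2a1 (-0.97 to 0.22), Adm (-0.94 to 0.24) and Ndrg1 (-2.19 to 0.39) in mes against epi organoids, and the interactions of Pgp (-0.11 to 0.18) and Vegfa (-0.64 to 0.75). The cause was not tested.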
